A study of Mus musculus with 59 samples.

Results

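The pyruvate dehydrogenase kinases were followed in the liver, bone marrow and spleen of mice given baclofen, an agonist of the GABA-B receptor used as a muscle relaxant. The members are the 4 genes Pdk1, Pdk2, Pdk3 and Pdk4, of 18193 genes that the arrays name by a single symbol. They were found as the 7 of 45101 probe sets, the array's measuring units, whose annotation gives 1 of these 4 symbols and no other. Pdk1 has 4 probe sets and each of the others has 1. The family was selected on baclofen-minus-vehicle differences of these same arrays, which were already known, so its members' baclofen-minus-vehicle differences, and the contrasts built from them, are described here with no p-value.

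All mice were of the B6C3F1 strain, a hybrid of laboratory inbred lines, and carry no engineered allele according to the labels. Vehicle mice received 0.5% methylcellulose. Mice were dosed 1 time or on 5 days, and tissues were taken 2 h after the last dose. The labels give neither the dose of baclofen nor the age or sex of the mice. Liver came from 3 vehicle and 4 baclofen arrays at 1 day and from 4 vehicle and 8 baclofen arrays at 5 days, and bone marrow (right humerus) and spleen each had 4 and 4 arrays at 1 day and 4 and 8 at 5 days, which makes 59 arrays in all. Nothing in the labels says that each numbered replicate is a separate animal, so every standard error and p-value measures only the spread between these samples, which may be technical. RNA of bone marrow was isolated with another kit than RNA of liver and spleen. The labels conflict for 5 of the 7 livers taken at 1 day, where the source name and the title give opposite treatments; the title, which the treatment field matches, was followed.

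The pyruvate dehydrogenase complex sits in mitochondria and turns pyruvate into acetyl-CoA, the entry of carbohydrate carbon into the citric acid cycle. Its kinases phosphorylate the E1 subunit and switch the complex off, and its phosphatases remove the phosphate and switch it on. Of the kinases, Pdk4 is known as the isoform induced in fasting, by glucocorticoids and by fatty acids and held down by insulin, Pdk2 as the broadly present isoform of liver and other tissues, Pdk1 as a target of the hypoxia-inducible factor, and Pdk3 as an isoform of narrower distribution.

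By RefSeq coordinates on GRCm38.p6, Pdk4 (gene ID 27273) lies on chromosome 6 from 5483351 to 5496278, Pdk1 (gene ID 228026) on chromosome 2 from 71873215 to 71903858, Pdk2 (gene ID 18604) on chromosome 11 from 95026258 to 95041371 and Pdk3 (gene ID 236900) on chromosome X from 93764616 to 93832150. The 250 bases before a transcription start of Pdk4 and of Pdk1 are shown. In spleen these are the members whose rise with baclofen passed the test threshold given below at both times. They are RefSeq sequence written 5′ to 3′ along each gene's own strand, with motif matches in capitals. The Pdk4 window is chr6:5496279-5496528, minus strand, and the Pdk1 window chr2:71872974-71873223, plus strand.
Pdk4: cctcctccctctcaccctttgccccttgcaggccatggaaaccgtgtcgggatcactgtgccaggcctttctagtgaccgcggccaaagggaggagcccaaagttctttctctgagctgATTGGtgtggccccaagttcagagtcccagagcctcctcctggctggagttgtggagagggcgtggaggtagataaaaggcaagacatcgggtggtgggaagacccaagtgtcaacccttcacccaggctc
Pdk1: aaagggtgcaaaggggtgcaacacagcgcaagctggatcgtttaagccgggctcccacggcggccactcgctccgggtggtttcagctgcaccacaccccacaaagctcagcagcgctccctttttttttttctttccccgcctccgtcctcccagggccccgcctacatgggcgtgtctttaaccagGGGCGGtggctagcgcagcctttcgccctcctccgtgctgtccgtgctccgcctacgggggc
Both strands of 32851 promoter windows of this length were searched for 7 motifs. The Pdk4 window held 1 of them, a CCAAT box (letters CCAAT) on the opposite strand that starts 131 bases before the start site, and 33.8% of all windows hold one. The Pdk1 window held a GC box (letters GGGCGG) 62 bases before the start site, as do 32.7% of windows somewhere in them. Neither window held the letters of the TATA box TATAAA, which 12.4% of windows hold. A FoxO site, searched as TGTTTAC and found in 3.17% of windows, was in neither. A half-site of the glucocorticoid receptor, searched as TGTTCT and found in 16.1%, was in neither. The half-site of nuclear receptors such as PPAR, AGGTCA, is held by 14.0% and was in neither. The core shared by hypoxia elements and some E-boxes, ACGTG, is held by 16.6% and was in neither. The GC content was 58.8% in the Pdk4 window and 64.0% in the Pdk1 window, against a median of 52.4%. RefSeq gives Pdk1 and Pdk2 a further start site each. The further Pdk1 window held the glucocorticoid receptor half-site at 2 places, and that of Pdk2 held no match. The Pdk2 window not yet named held a CCAAT box at 3 places and the hypoxia core on both strands at 1 place, and the Pdk3 window held a CCAAT box, a GC box and the hypoxia core at 1 place each.

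The deposited values are intensities summarised by robust multi-array averaging (RMA), and all levels below are log2 of them. The arrays of each tissue had nearly the same median intensity (34.7 to 36.8 in liver, 72.6 to 76.1 in bone marrow, 74.3 to 77.6 in spleen), so the tissues appear to have been normalised apart. Levels in different tissues are therefore set side by side only where they differ many-fold, and levels of different genes are not compared. Genes in the upper 60% of mean intensity in a tissue were tested with limma, 10916 genes per tissue, at an adjusted p under 0.05. Pdk1 passed this filter in all 3 tissues, Pdk2 in liver alone, and Pdk3 and Pdk4 in bone marrow and spleen. Pdk4 in bone marrow lay close to the filter, at percentile 42.6 of all genes. There its vehicle means (6.37 at 1 day, 5.95 at 5 days) lay below the filter of 6.38. Its baclofen means (7.44 and 6.61) lay above it, so Pdk4 was tested in bone marrow only through the baclofen groups. Its calls in bone marrow, and in bone marrow minus spleen, depend on that and are descriptions. In each fit the 4 groups of a tissue share 1 estimate of spread. Hepatocyte markers (10 of 12 listed genes measured) were bright in liver and marked 3 spleens, all taken at 5 days: their means were 9.98 (vehicle, replicate 3), 9.85 (baclofen, replicate 5) and 7.36 (vehicle, replicate 1), while the remaining 17 spleens lay between 4.85 and 6.20. Skeletal muscle markers (10 of 10) averaged 10.16 in a single marrow (baclofen at 1 day, replicate 3), and 19 marrows lay between 6.65 and 8.16. An array summarises a whole tissue, so fewer cells of a type and less RNA per cell cannot be told apart.

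Pdk4 was the member with the largest differences. In spleen its level was 6.69, 8.76, 7.73 and 7.27 in the 4 vehicle samples at 1 day and 9.79, 9.63, 9.29 and 9.77 in the 4 baclofen samples. Every baclofen spleen lay above every vehicle spleen, and vehicle replicate 2 was the nearest. How many of all genes separate in this way was not counted, here or below. The difference was 2.01 ± 0.36 on the log2 scale (SE), a 4.02-fold higher intensity, and was past the threshold, as were 15.5% of all genes tested in that comparison (7.64% up, 7.91% down). It was the rise in position 4 of 10916 genes.

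After 5 doses the vehicle spleens measured 5.81, 7.67, 6.97 and 6.83 and the 8 baclofen spleens ranged from 8.87 to 9.70, with a median of 9.23. The groups again did not overlap, and the vehicle spleens were spread over a wider range than the baclofen spleens. The difference was 2.44 ± 0.31, or 5.44-fold, and was the largest rise of all 10916 genes tested in spleen at 5 days. It was past the threshold, as were 4.43% of genes (3.05% up, 1.38% down). Because the family was chosen with these differences known, nothing is read from the comparison with those shares.

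Other cells' markers differed between some of these spleens. The summed intensity of adipocyte markers (7 of 9 measured) was 380 to 448 in the vehicle and 418 to 1611 in the baclofen spleens at 5 days, and 407 to 654 against 435 to 567 at 1 day. No RMA intensity is 0, so no marker was at 0. In baclofen 5 day replicate 2 the adipocyte marker mean was 5.02, the lowest of its group and inside the vehicle range of 4.95 to 5.19. In that single sample Pdk4 was at 9.57. Without the 6 spleens whose adipocyte mean was above 5.5, Pdk4 was higher by 2.05 at 1 day and by 2.40 at 5 days, both past the threshold. Those 6 came from the vehicle group at 1 day (highest mean 5.66) and the baclofen group at 5 days (highest 6.60), so these groups were smaller in that fit. That cut was set after seeing the data, and the part of adipocytes in the Pdk4 difference was not tested. Without the 3 spleens that held hepatocyte transcripts, the 5-day difference was 2.02 and past the threshold. Vehicle replicate 1, the lowest of the 5-day spleens for Pdk4, is 1 of those 3. Vehicle replicate 3 is another, so that fit lacked replicates 1 and 3 of the 4 vehicle spleens at 5 days. Neutrophil markers (9 of 10) averaged 9.62 to 11.25 in vehicle and 9.43 to 9.63 in baclofen spleens at 1 day, and 9.60 to 10.62 and 8.70 to 10.66 at 5 days; their part in the Pdk4 difference was not tested.

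**Figure D1:**
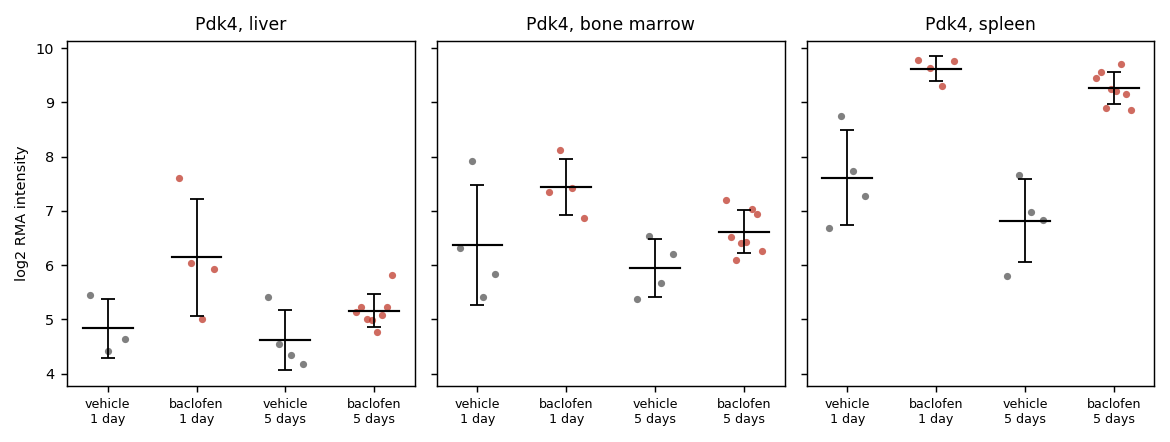
Pdk4 level (log2 RMA intensity, vertical axis) in each array, by treatment and number of days, in liver, bone marrow and spleen. Points are arrays, long horizontal lines are group means and bars are ± 1 SD; the 12 baclofen spleens sit between 8.87 and 9.79 and the 8 vehicle spleens between 5.81 and 8.76.

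In bone marrow, Pdk4 passed in neither baclofen comparison. The vehicle samples at 1 day were at 6.32, 7.93, 5.41 and 5.83 and the baclofen samples at 7.36, 8.13, 7.42 and 6.87. The groups overlapped, because vehicle replicate 2 was above 3 of the 4 baclofen samples. The difference was 1.07 ± 0.40 (2.10-fold) and was not past the threshold, which 7.36% of genes passed (3.11% up, 4.25% down). Without that vehicle replicate 2 the difference was 1.59 and past the threshold. At 5 days the vehicle samples were at 5.37, 6.55, 5.66 and 6.21 and the 8 baclofen samples at 6.10 to 7.20, with a median of 6.47. These groups overlapped too, with a difference of 0.67 ± 0.35 that was not past the threshold, which 10.1% of genes passed (6.15% up, 3.93% down). Leaving out the 1-day sample rich in muscle transcripts gave a 1-day difference of 1.08. The summed adipocyte markers in bone marrow were 987 to 2034 in vehicle and 1778 to 2374 in baclofen samples at 1 day, and 1450 to 2039 against 1727 to 3020 at 5 days, and their part in the result was not tested.

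Liver Pdk4 lay below the filter on dim genes, so it was not tested there in the fit of genes. In a fit of every probe set apart, whose filter it passed, it was not past the threshold at 1 day or at 5 days. The vehicle livers at 1 day were at 5.44, 4.42 and 4.63 and the baclofen livers at 7.61, 6.03, 5.02 and 5.93. Of the 4 baclofen livers, 3 were above all vehicle livers, and replicate 1 stood highest. The difference was 1.31 ± 0.47 (ordinary SE), and 0.82 without baclofen replicate 1. At 5 days the vehicle livers were at 5.41, 4.54, 4.33 and 4.18 and the 8 baclofen livers at 4.77 to 5.81, with a median of 5.11. Here a single baclofen liver was above all vehicle livers, and the difference was 0.54 ± 0.37. With treatments taken from the source field instead of the title, the 1-day liver difference was -0.05.

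The vehicle groups were compared between 5 days and 1 day, a contrast on which the family was not chosen. The same vehicle arrays enter the baclofen-minus-vehicle differences behind that choice. The values are thus not independent of it, and their p-values are descriptions. In spleen Pdk4 was lower at 5 days by 0.79 ± 0.36, the fall in position 7 of 10916 genes, but the adjusted p in limma was 0.962 (unadjusted p = 0.0383). In bone marrow it was lower by 0.42 ± 0.40 (adjusted p = 0.919). The spleen value was -0.41 when replicate 2 of the 1-day vehicle group was left out and -0.46 when replicate 1 of the 5-day group was. The bone marrow value was 0.09 when 1-day replicate 2 was left out, -0.74 for 1-day replicate 3 and -0.23 for 5-day replicate 1. In both tissues vehicle replicate 2 was the highest vehicle sample for Pdk4 on both days, and in liver it was replicate 1 on both days. Of all genes, the share past the threshold was 0% (liver), 0% (bone marrow) and 0% (spleen), with 779, 510 and 378 genes at an unadjusted p under 0.05. The other members' adjusted p-values in it were 0.939 for Pdk1 and 0.972 for Pdk2 in liver, 0.979 for Pdk1 and 0.912 for Pdk3 in bone marrow, and 0.962 for Pdk1 and 0.967 for Pdk3 in spleen.

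The change of the baclofen difference from 1 to 5 days was 0.44 ± 0.47 for Pdk4 in spleen and -0.41 ± 0.53 in bone marrow. For liver it was -0.77 ± 0.60 and was not tested in the fit of genes. With any 1 sample left out, these Pdk4 values ran from 0.06 to 0.75, from -0.93 to -0.09 and from -1.15 to -0.28. No tested member was past the threshold in any tissue. Of all genes, 0.0183% passed for liver, and 0% for bone marrow as for spleen (0%), with 1050, 559 and 858 genes at an unadjusted p under 0.05. For Pdk1 the liver, bone marrow and spleen values were 0.32 ± 0.27, 0.03 ± 0.09 and -0.06 ± 0.11, and for Pdk3 it was -0.12 ± 0.08 in bone marrow and -0.08 ± 0.18 in spleen. For Pdk2 in liver it was 0.17 ± 0.26.

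Between tissues, the Pdk4 difference of baclofen and vehicle was smaller in bone marrow than in spleen (marrow minus spleen -0.93 ± 0.58 at 1 day and -1.78 ± 0.50 at 5 days). The 5-day value was past the threshold, which 4.48% of genes passed, and the 1-day value was not, where 1.91% passed. It lost the threshold without bone marrow vehicle 5 day replicate 2 (-1.58) or replicate 4 (-1.69), without spleen vehicle 5 day replicate 1 (-1.44), and without the 4 libraries that held transcripts of another tissue (-1.36). Liver Pdk4 was too dim for this comparison, in which its liver difference minus that of spleen was -1.90 at 5 days. No Pdk1 or Pdk3 difference between tissues was past the threshold. For Pdk1 they were -0.17 ± 0.20 at 1 day and 0.12 ± 0.17 at 5 days for liver minus bone marrow (2.27% and 7.8% of genes passed), and -0.25 ± 0.20 and 0.12 ± 0.17 for liver minus spleen (6.53% and 11.7% passed). For bone marrow minus spleen they were -0.09 ± 0.19 and -0.00 ± 0.17 for Pdk1 and 0.23 ± 0.14 and 0.18 ± 0.12 for Pdk3.

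By its brightest probe set Pdk1 was modestly higher with baclofen in both blood-forming tissues, while its other probe sets differed in size. In bone marrow at 1 day its brightest probe set (1423747_a_at) was at 8.50, 8.78, 8.55 and 8.76 in vehicle and at 9.01, 8.84, 8.99 and 9.15 in baclofen samples. At 5 days it was at 8.60, 8.67, 8.71 and 8.69 in vehicle samples and at 8.93 to 9.16 in the 8 baclofen samples, with a median of 9.03. For this probe set all baclofen marrows were above all vehicle marrows of the same day. The differences were 0.35 ± 0.07 (1.27-fold) and 0.38 ± 0.06 (1.30-fold), both past the threshold. In a fit of the 2 groups alone the 1-day marrow difference was no longer past it. For other Pdk1 probe sets the marrow groups overlapped, on both days for 1434974_at and 1435836_at and at 5 days for 1423748_at. Macrophage markers (8 measured) in bone marrow averaged 9.23 to 9.73 in vehicle and 9.72 to 10.11 in baclofen samples at 1 day and 9.68 to 9.79 and 9.72 to 10.14 at 5 days, erythroid markers 11.16 to 11.40 in vehicle and 11.16 to 11.44 in baclofen samples at 1 day and 10.89 to 11.34 and 11.27 to 11.59 at 5 days, and neutrophil markers 13.89 to 13.99 in vehicle and 13.69 to 14.02 in baclofen samples at 1 day and 13.91 to 14.01 and 13.67 to 13.97 at 5 days. Their part in the Pdk1 difference in bone marrow was not tested.

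In spleen Pdk1 was at 9.14, 9.30, 9.41 and 9.37 in vehicle and at 9.74, 9.69, 9.81 and 9.71 in baclofen samples at 1 day. At 5 days it was at 9.11, 9.20, 9.29 and 9.41 in vehicle samples and at 9.50 to 9.89 in baclofen samples, with a median of 9.60. Again the groups did not overlap on either day, for 1423747_a_at as for 1423748_at. They overlapped at 5 days for 1434974_at and at 1 day for 1435836_at. For the brightest probe set the differences were 0.43 ± 0.09 (1.35-fold) and 0.38 ± 0.08 (1.30-fold), both past the threshold. The 5-day difference was 0.33 and no longer past it without the 3 spleens that held hepatocyte transcripts, and 0.40 and no longer past it with the replicate number as a block. Macrophage markers in spleen averaged 9.32 to 9.49 in vehicle and 8.88 to 9.39 in baclofen samples at 1 day and 9.26 to 9.40 and 9.02 to 9.92 at 5 days. T cell markers (6 of 7) averaged 8.51 to 9.31 in vehicle and 8.95 to 9.31 in baclofen spleens at 1 day and 8.70 to 9.16 and 8.84 to 9.22 at 5 days, and B cell markers (6 of 7) 10.44 to 11.51 and 11.25 to 11.43 at 1 day and 11.09 to 11.48 and 11.16 to 11.55 at 5 days. Their part in the Pdk1 difference was not tested.

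In liver the 3 vehicle samples at 1 day were nearly equal for Pdk1, at 9.019, 9.002 and 9.030, and the baclofen samples were at 9.20, 9.02, 9.09 and 9.47. The difference was 0.18 ± 0.21 and was not past the threshold, which 2.67% of genes passed (1.58% up, 1.09% down). At 5 days the vehicle livers split into 9.32 and 9.37 against 8.29 and 8.44, and the 8 baclofen livers ranged from 8.98 to 9.64, with a median of 9.33. This gave 0.50 ± 0.17, not past the threshold, which 10.6% of genes passed (4.86% up, 5.75% down). It passed without vehicle replicate 1 (0.65), without vehicle replicate 4 (0.67) or without baclofen replicate 7 (0.55).

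**Figure D2:**
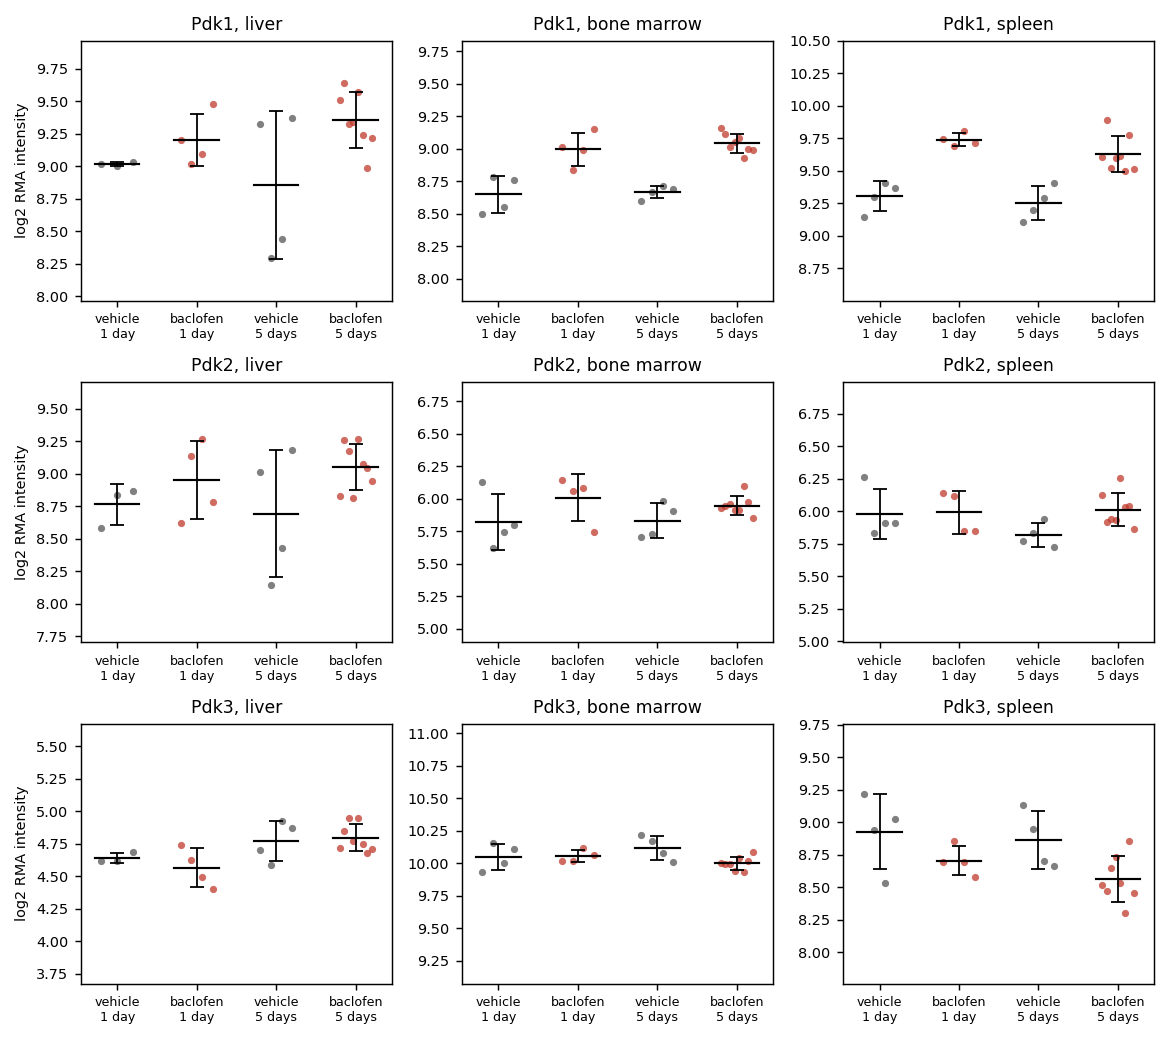
Pdk1 (probe set 1423747_a_at), Pdk2 and Pdk3 levels (log2 RMA intensity, vertical axis) in each array of the 3 tissues, each panel spanning the same height on its own range. Points are arrays, long lines are means and bars are ± 1 SD; Pdk1 separates by treatment in bone marrow and spleen, and the vehicle livers at 5 days split into a high and a low pair for both Pdk1 and Pdk2.

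The 4 Pdk1 probe sets were also fitted apart, each among 20967 probe sets per tissue. They measure 1 gene, and the share of all probe sets that passed in this fit was not counted. In spleen 1423747_a_at, 1423748_at and 1434974_at were past the threshold at both times, by 0.43, 0.39 and 0.55 at 1 day and by 0.38, 0.38 and 0.57 at 5 days. The last probe set, 1435836_at, was at 0.15 ± 0.11 and 0.32 ± 0.10 and not past it. In bone marrow 1423747_a_at passed at both times, and 1423748_at passed at 5 days (0.34 ± 0.07) and not at 1 day (0.26 ± 0.08). There 1435836_at was at -0.04 ± 0.08 and 0.17 ± 0.07 and did not pass, and 1434974_at was too dim to test in bone marrow and liver. In liver at 5 days 1435836_at alone passed, by 0.40 ± 0.12. The probe sets thus disagreed on size, and in bone marrow at 1 day 1435836_at stood on the other side of 0 from the 2 other tested probe sets.

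**Figure D3:**
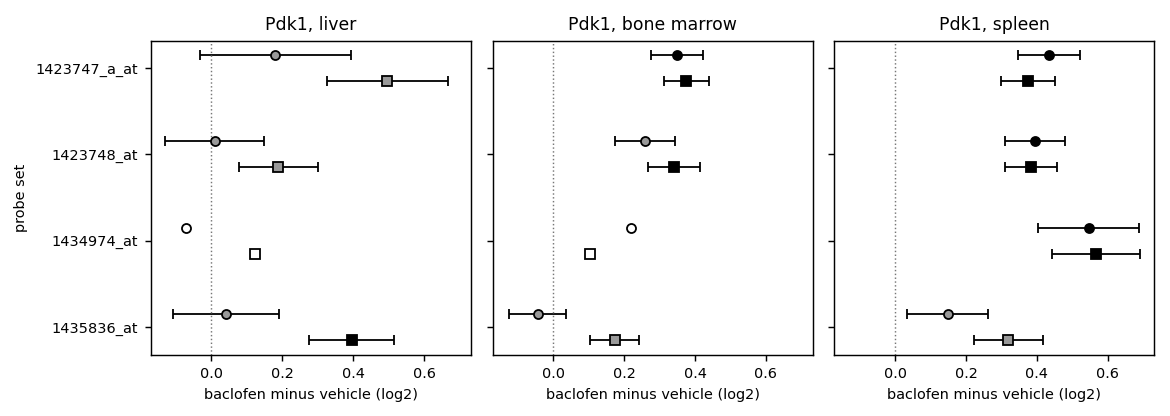
Baclofen minus vehicle (log2, horizontal axis) for the 4 Pdk1 probe sets in liver, bone marrow and spleen. Circles are 1 day and squares 5 days, bars are ± 1 SE, black symbols are past the threshold, grey ones are not, and open ones were too dim to test. In spleen 3 of the 4 probe sets, which measure 1 gene, are black at both times. The share of all probe sets past the threshold was not counted.

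Pdk2, the main liver isoform by background knowledge, was bright in liver and dim elsewhere. Its level was 8.58, 8.84 and 8.86 in vehicle and 8.62, 9.13, 9.26 and 8.78 in baclofen livers at 1 day. At 5 days the vehicle livers were at 9.01, 8.14, 8.43 and 9.18 and the baclofen livers at 8.81 to 9.26, with a median of 9.06. Vehicle livers 2 and 3 were low at 5 days for Pdk2 as for Pdk1, and the groups overlapped on both days. The differences were 0.19 ± 0.20 and 0.36 ± 0.16, neither past the threshold. Without vehicle replicate 4 the 5-day difference was 0.52 and passed. In bone marrow Pdk2 ranged from 5.62 to 6.14 and in spleen from 5.73 to 6.26, under the filter. The differences were 0.19 and 0.12 for bone marrow at 1 and 5 days and 0.01 and 0.20 for spleen. In the fit of every probe set apart Pdk2 was tested in spleen and was not past the threshold on either day.

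Pdk3 had the widest range of levels over tissues. It was at 9.93 to 10.21 in every bone marrow, at 8.30 to 9.21 in spleen and at 4.40 to 4.95 in liver, where it fell under the filter. All marrows were above all spleens and all spleens above all livers on the deposited scale, and only the gap to liver is many-fold. In spleen at 1 day the vehicle samples were at 9.21, 8.94, 8.53 and 9.03 and the baclofen samples at 8.69, 8.85, 8.70 and 8.58. At 5 days they were at 9.14, 8.95, 8.70 and 8.66 with vehicle and at 8.30 to 8.85 with baclofen (median 8.52), and 6 of the 8 baclofen spleens were below all vehicle spleens. The differences were -0.22 ± 0.14 and -0.30 ± 0.12, neither past the threshold. The 1-day difference was -0.35 and past it without vehicle replicate 3, the lowest vehicle spleen for Pdk3 at that time. Erythroid markers (8 of 10) averaged 9.36 to 11.29 in vehicle and 9.74 to 10.25 in baclofen spleens at 1 day, and 8.95 to 11.19 and 8.11 to 10.48 at 5 days, and their part in the Pdk3 values was not tested. In bone marrow the Pdk3 differences were 0.00 ± 0.06 and -0.12 ± 0.05.

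**Figure D4:**
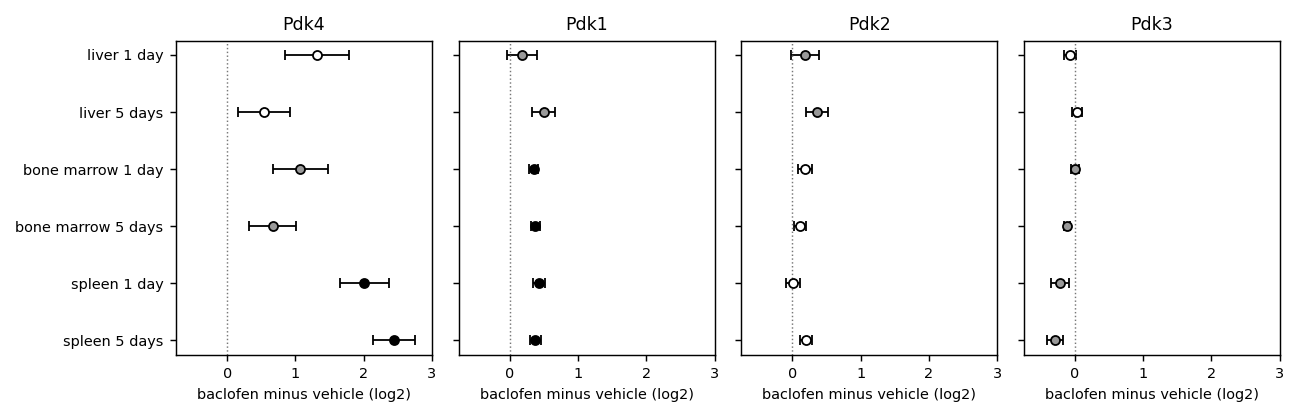
Baclofen minus vehicle (log2, horizontal axis) for each kinase gene in the 6 comparisons of tissue and day (vertical axis). Bars are ± 1 SE, black points are past the threshold, grey points are not, and open points were too dim for the fit of genes. Pdk4 reaches 2.44 in spleen, while Pdk1 is black in bone marrow and spleen between 0.35 and 0.43.

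The genes whose levels followed a member most closely over the arrays of a tissue were found by Pearson correlation over all genes tested. These correlations are descriptions over arrays that share treatments and normalisation. In spleen (20 arrays) Pdk4 was closest to Klf9, a Krüppel-like factor (r = 0.962, Spearman's rho = 0.826), Fkbp5, a co-chaperone of the glucocorticoid receptor (r = 0.958, rho = 0.8), Ppp1r21 (0.950, 0.947), Jdp2 (0.948, 0.901) and Pdcd4 (0.948, 0.923). In bone marrow (20 arrays) it was closest to the metallothionein gene Mt2 (r = 0.857), Samd4 (0.847), Golga5 (0.815), Stox2 (0.802) and Cblb (0.801). None of the 5 genes was on both lists. Pdk1 was closest in spleen to Il7r, the interleukin-7 receptor (0.943), and Iws1 (0.940), in bone marrow to Tlcd4 (0.901) and Iars2 (0.900), and in liver (19 arrays) to Spag9 (0.919) and Mtx2 (0.907). Pdk3 was closest in spleen to Cks1b (0.973) and Cdc45 (0.971), which act in the cell cycle, and in bone marrow to Qsox1 (0.884) and Ppp2cb (0.858). Pdk2 in liver was closest to Cyp4f15 (0.896) and Stard7 (0.891).

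The gene lists in this and the following paragraphs were also drawn up with earlier results of these arrays known. Their calls and p-values are therefore descriptions and not independent evidence. The enzyme that the kinases act on did not pass the test with any of its genes. For the 5 subunit genes Pdha1, Pdhb, Dlat, Dld and Pdhx, 0 passed in limma in each of the 6 comparisons. Of all genes, 2.67% and 10.6% passed in liver at 1 and 5 days, 7.36% and 10.1% in bone marrow and 15.5% and 4.43% in spleen. At an unadjusted p under 0.05 there were 0 at 1 day and 5 at 5 days in liver, 0 and 0 in bone marrow, and 2 and 4 in spleen. Of all 10916 genes, 1363 and 2910 were at such a p in liver, 2629 and 2884 in bone marrow and 3498 and 2822 in spleen. These are also the base for the unadjusted counts in the paragraphs below. In liver at 5 days all 5 differences were above 0, with a median of 0.21 beside -0.02 for all genes, and the largest difference was that of Dlat, the E2 subunit (0.31 ± 0.13, adjusted p = 0.124). In spleen the median was -0.25 at 1 day and -0.22 at 5 days, beside -0.03 and -0.00 for all genes. There the largest difference was again that of Dlat (-0.37 ± 0.13, adjusted p = 0.0586 at 1 day; -0.29 ± 0.11, adjusted p = 0.116 at 5 days).

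Of the phosphatase genes, Pdp2, a catalytic subunit, and Pdpr, the regulatory subunit, were tested in each tissue. Pdp2 fell in spleen at 1 day by 0.31 ± 0.09 (limma, adjusted p = 0.0279), where 15.5% of all genes passed. It was the single call among the 2 genes in 6 comparisons, and at 5 days in spleen Pdp2 was at -0.02 ± 0.08 (adjusted p = 0.914).

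Among 9 to 11 tested genes of pyruvate transport and other uses of pyruvate, the liver had most of the changes. Gpt2, mitochondrial alanine aminotransferase, rose in liver by 0.68 ± 0.12 at 1 day (limma, adjusted p = 0.00341) and by 0.43 ± 0.10 at 5 days (adjusted p = 0.00971). Mpc1, a subunit of the mitochondrial pyruvate carrier, rose in liver at 5 days by 0.27 ± 0.08 (adjusted p = 0.0435), and Slc16a1, a monocarboxylate transporter, fell by 0.53 ± 0.14 (adjusted p = 0.0215). Pcx, pyruvate carboxylase, rose in bone marrow at 5 days by 0.53 ± 0.11 (adjusted p = 0.00657). Of all genes, 2.67% and 10.6% passed in liver at 1 and 5 days and 10.1% in bone marrow at 5 days. In spleen 0 of 9 passed on either day, with 1 and 2 at an unadjusted p under 0.05. There 15.5% and 4.43% of all genes passed at 1 and 5 days. In the related branched-chain keto acid complex and its kinase and phosphatase, 1 of 5 genes passed in 1 of the 6 comparisons, Dbt in spleen at 1 day (0.33 ± 0.10, adjusted p = 0.0363).

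Genes of fat oxidation and targets of PPAR-alpha, a class to which Pdk4 belongs in the liver, moved both ways. In liver 0 of 18 passed at 1 day (3 at an unadjusted p under 0.05), and at 5 days 3 rose and 2 fell. Acot1, an acyl-CoA thioesterase, rose by 1.53 ± 0.40 (limma, adjusted p = 0.0188), Angptl4, an inhibitor of lipoprotein lipase, by 1.04 ± 0.28 (adjusted p = 0.0214), and Plin2, a lipid droplet protein, fell by 0.65 ± 0.17 (adjusted p = 0.0221). In spleen 1 rose and 2 fell of 13 at 1 day and 1 rose at 5 days. There Acot2 rose by 0.25 ± 0.08 and 0.25 ± 0.06, and Acot1 fell by 0.55 ± 0.13 at 1 day. In bone marrow 1 of 13 rose on each day. Among all genes, 2.67% and 10.6% passed in liver at 1 and 5 days, 15.5% and 4.43% in spleen and 7.36% and 10.1% in marrow.

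Genes of the factors known to act on Pdk4 passed in 5 of the 6 comparisons. At 1 and 5 days, 2.67% and 10.6% of all genes passed in liver, 7.36% and 10.1% in marrow and 15.5% and 4.43% in spleen. The 1 rise and 1 fall of 13 in spleen at 1 day lie near that share. So does the 1 rise of 12 in bone marrow at 5 days. In liver 4 of 15 rose at 1 day and 5 of 15 at 5 days, and none fell. Foxo1 rose by 1.04 ± 0.13 and 1.09 ± 0.10, Ppargc1a, a coactivator, by 1.57 ± 0.24 and 1.71 ± 0.19, and Cebpb by 1.49 ± 0.18 and 1.23 ± 0.15. In spleen at 1 day Foxo1 rose by 0.64 ± 0.15 (limma, adjusted p = 0.00769) and Pparg fell by 0.77 ± 0.24 (adjusted p = 0.0339), and at 5 days 0 of 13 passed, with 2 at an unadjusted p under 0.05. In bone marrow Cebpb rose by 0.63 ± 0.16 and Nr3c1, the glucocorticoid receptor, fell by 0.25 ± 0.07 at 1 day, and Foxo3 rose by 0.31 ± 0.06 at 5 days.

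A list of 17 genes repressed by insulin or induced by glucocorticoids, as Pdk4 is known to be, held many rises and no fall. The list was drawn up with results of these arrays known, so its direction is not independent evidence. In liver 9 of 17 rose at 1 day and 14 of 17 at 5 days, in bone marrow 6 and 10 of 12, and in spleen 9 and 11 of 13. The shares of all genes that rose were 1.58% and 4.86% in liver, 3.11% and 6.15% in bone marrow and 7.64% and 3.05% in spleen. The median differences at 1 and 5 days were 1.39 and 1.01 for liver, 0.73 and 0.96 for bone marrow and 1.15 and 1.28 for spleen, and the median of all genes stayed between -0.03 and 0.00. In spleen Errfi1, a feedback inhibitor of the EGF receptor, rose by 2.13 ± 0.28 and 2.17 ± 0.24, and Klf15, a factor of fasting metabolism, by 1.31 ± 0.18 and 1.28 ± 0.16. Klf9 rose there by 1.25 ± 0.13 at 5 days (limma, adjusted p = 0.000151). In bone marrow Per1, a clock gene, rose by 2.14 ± 0.22 and 2.22 ± 0.19. In liver G6pc, glucose-6-phosphatase, rose by 1.75 ± 0.23 at 1 day and Tat, tyrosine aminotransferase, by 1.35 ± 0.18 at 5 days.

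Of the genes of the hypoxia response, of which Pdk1 is a known member, 5 of 12 rose in liver at 5 days and 7 did not pass. In bone marrow 0 of 14 rose and 2 fell at 1 day and 3 fell at 5 days. Hk2, hexokinase, fell there by 0.84 ± 0.18 (limma, adjusted p = 0.00852) and 0.70 ± 0.15 (adjusted p = 0.0113), and Vegfa, a vascular growth factor, by 0.45 ± 0.11 and 0.45 ± 0.09. In spleen 1 rose and 1 fell of 14 at 1 day, Slc2a1 by 0.47 ± 0.15 and Hk2 by 0.52 ± 0.14, and 2 rose at 5 days, Epas1 by 0.44 ± 0.11 and Bnip3 by 0.32 ± 0.08. In liver 1 of 12 rose at 1 day, and the rises at 5 days included Pfkfb3, a regulator of glycolysis, by 1.60 ± 0.25 (adjusted p = 0.000641). In liver 2.67% and 10.6% of all genes passed at 1 and 5 days, in marrow 7.36% and 10.1%, and in spleen 15.5% and 4.43%. The 1 rise and 1 fall of 14 in spleen at 1 day lie near the share of all genes there.

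**Figure D5:**
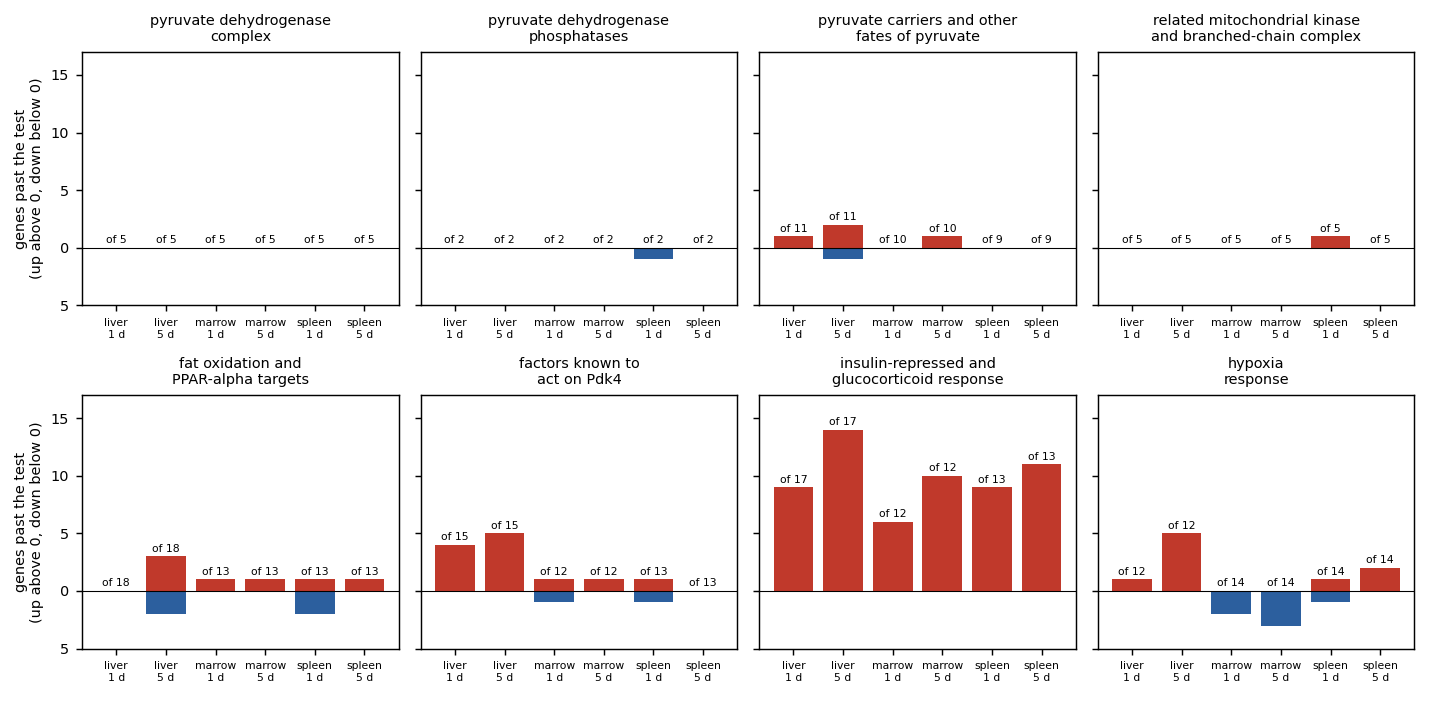
Number of genes past the test with baclofen (vertical axis; rises above 0, falls below 0) in 8 lists around the kinases, for the 6 comparisons of tissue and day (horizontal axis), with the number tested over each bar. The list of insulin-repressed and glucocorticoid-responsive genes has between 6 and 14 rises in each comparison, and the subunits of the pyruvate dehydrogenase complex have none.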

How the data were processed

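Expression was measured on 59 Affymetrix arrays. Per the submitters' processing notes, RMA and limma were used, with no version given. The deposited values are RMA intensity on a linear scale, from 5.25 to 43115, summarised by the authors per probe set, and precision is limited by how many arrays there are. Here they were transformed to log2 with no further normalisation. Of 45101 probe sets, 64 controls, 932 with several symbols and 9160 with none were left out. The brightest probe set in a tissue stood for its gene, and genes at or above the 40th percentile of mean intensity were tested (intensity of at least 42.9, 83.6 and 79.5 for liver, marrow and spleen). Fits used limma 3.58.1 (R 4.3.3; lmFit, eBayes) on the 4 groups of a tissue, or on all 12 groups for differences between tissues, with genes that passed in both. P-values are 2-sided and adjusted by Benjamini and Hochberg over all genes tested, with a threshold of 0.05. The procedure was tested on simulated data. Members below the filter have ordinary standard errors and no test in the fit of genes.

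The members and lists were chosen with earlier results of these data known. Of 169 genes in the pathway and marker lists, 155 have a probe set. Named are the members, up to 3 genes per list and comparison with the smallest adjusted p among those past the threshold (where none passed, the largest difference), and the genes most correlated with a member. Alternatives covered the brightness filter (none, or the 60th percentile), the mean of the probe sets, quantile normalisation, median centring, robust eBayes with a trend, array weights, fits restricted to the compared groups, the RNA quality sign as a covariate, a replicate block, source-name labels, and leaving out each replicate; leaving out libraries with transcripts of another tissue or with adipocyte markers was added after seeing the data. Promoters are from RefSeq (GRCm38.p6). No 2 arrays were identical (0 pairs).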

Additional observations from a re-analysis of the deposited data

Results flagged for a closer look

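In 77 groups of 4 to 8 arrays (each member probe set in each group of that size), 3 held a sample whose gap to its nearest neighbour, divided by the range of the group, was above Dixon's 95% critical value, and chance flags about 1 in 20 such groups. Liver baclofen 5 day replicate 8 had a Pdk4 level of 5.81, while the remaining 7 lay between 4.77 and 5.23. In bone marrow baclofen 5 day replicate 8 the Pdk1 probe set 1435836_at was at 8.27, where the other 7 lay between 7.97 and 8.09. The same probe set was at 9.46 in spleen baclofen 1 day replicate 3, while the other 3 lay between 8.98 and 9.06. The difference of baclofen and vehicle for Pdk4 at 5 days differed between bone marrow and spleen by -1.78 in the fit of all 12 groups, and the family was chosen with the spleen difference known.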

How the results depend on the processing

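Of 1036 member differences with 1 replicate left out and 761 under other alternatives, 54 and 19 changed sign, 22 and 8 of them in members with no test; 3 and 4 lost the threshold and 6 and 5 gained it. Pdk4 in spleen on both days, Pdk1 in spleen at 1 day and Pdk1 in bone marrow at 5 days stayed past the threshold in every alternative run. The replicate numbers were not taken to pair the samples. Between vehicle and baclofen of 1 tissue, the correlation of deviations ran from -0.46 to 0.27 in 23 same-numbered pairs, and 5 were over 0.1. Between bone marrow and spleen of 1 group it ran from -0.24 to 0.45 in 20 pairs, 11 over 0.1 and 10 best with their own number, and Pdk4 lay on the same side of both group means in 14. With the number as a block across tissues, Pdk4 in bone marrow minus spleen at 5 days stayed at -1.78 and past the threshold. With the replicate number as a block, Pdk1 in spleen at 5 days was at 0.40 and lost the threshold, which left 1 member called there. It was at 0.33, with 1 member called, without the libraries that held another tissue's transcripts. In a fit of only the groups compared, Pdk1 in bone marrow at 1 day kept 0.35 and lost the threshold, with 0 members called. With array weights, Pdk4 (0.88) and Pdk3 (-0.088) in bone marrow at 5 days passed, for 3 members called, Pdk3 in bone marrow at 1 day was at -0.031, the change of Pdk3 in spleen from 1 to 5 days was 0.095, and vehicle Pdk2 in bone marrow differed between days by 0.18. Pdk3 in spleen at 1 day passed at -0.35 without the spleens high in adipocyte markers. That is the same value as without vehicle 1 day replicate 3 alone, so it is not a separate result.

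Pdk4 in bone marrow minus spleen at 5 days was -1.36 and not past the threshold without the libraries that held another tissue's transcripts, and at the 60th percentile filter Pdk4 was not tested in bone marrow, which left 0 called. With no brightness filter, or with the mean of the probe sets, Pdk4 in liver minus spleen at 5 days was tested and passed at -1.90, for 1 member called. With treatments from the source field, the liver differences at 1 day were -0.073 for Pdk1, -0.17 for Pdk2, 0.15 for Pdk3 and -0.047 for Pdk4, the changes from 1 to 5 days -0.12 for Pdk3 and 0.59 for Pdk4, and vehicle Pdk4 differed between days by -0.99. Pdk3 in bone marrow at 1 day also changed sign, to -0.0038 with median centring, -0.017 with the RNA quality sign and -0.018 without the other-tissue libraries. With the mean of the probe sets, Pdk1 was at 0.031 for the spleen change. It was then at -0.11 for liver minus spleen at 5 days, against 0.12 in the main fit. Pdk1 was at -0.028 for vehicle bone marrow with the RNA quality sign, and at 0.050 for bone marrow minus spleen at 5 days without the other-tissue libraries. Among members with no test, Pdk2 in spleen at 1 day was at -0.0011 with median centring and -0.013 with quantile normalisation. It was at -0.0095 without the spleens high in adipocyte markers. Vehicle Pdk4 in liver differed between days by 0.032 with the RNA quality sign.

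Leaving out each replicate in turn, the members called ran from 0 to 1 for bone marrow minus spleen at 5 days, from 1 to 2 in bone marrow at 1 day and from 0 to 2 in liver at 5 days. The differences ran from -2.06 to -1.44 for Pdk4 in bone marrow minus spleen at 5 days, from 0.75 to 1.59 for Pdk4 in bone marrow at 1 day, from 0.31 to 0.67 for Pdk1 and from 0.17 to 0.52 for Pdk2 in liver at 5 days, and from -0.35 to -0.13 for Pdk3 in spleen at 1 day. Ranges across 0 were, among tested members, -0.036 to 0.038 for Pdk3 in bone marrow at 1 day; for the change from 1 to 5 days, -0.025 to 0.079 for Pdk1 in bone marrow, -0.013 to 0.33 for Pdk2 in liver and -0.17 to 0.056 for Pdk3 in spleen. For vehicle between days they were -0.030 to 0.063 for Pdk1 in bone marrow, -0.33 to 0.027 for Pdk1 and -0.24 to 0.11 for Pdk2 in liver, -0.20 to 0.030 for Pdk3 in spleen and -0.74 to 0.094 for Pdk4 in bone marrow. For Pdk1 between tissues at 5 days they were -0.052 to 0.048 for bone marrow minus spleen, -0.067 to 0.29 for liver minus bone marrow and -0.067 to 0.29 for liver minus spleen. Among members with no test they were -0.038 to 0.11 for Pdk2 in spleen at 1 day, -0.036 to 0.077 for Pdk3 in liver at 5 days, -0.059 to 0.11 for vehicle Pdk2 in bone marrow, -0.48 to 0.086 for vehicle Pdk4 in liver, -0.10 to 0.11 for Pdk2 and -0.28 to 0.62 for Pdk4 in liver minus bone marrow at 1 day, -0.32 to 0.14 for Pdk4 at 5 days, and -0.021 to 0.33 for Pdk2 in liver minus spleen at 5 days. The cause of these changes was not tested, and the number of arrays limits the precision.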
